A study of Mus musculus with 18 samples.

Results

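B cells from the Peyer's patches of allergic mice were compared after 2 i.v. treatments with ovalbumin (OVA), given either inside polymer nanoparticles (OVA NPs) or as free, soluble protein. The comparison takes the 3 libraries labelled OVA NPs and the 3 labelled Soluble OVA from Peyer's patch, 6 of the 18 bulk RNA-Seq libraries of the series, and the membership rests on the labels alone. The remaining libraries are 3 from Peyer's patch of PBS-treated mice and 9 from spleen under the same treatments.

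All mice were female BALB/cJ, aged 4 to 6 weeks at the start and 10 to 12 weeks at harvest. Every group, PBS included, was sensitized i.p., on days 0 and 14, using 20 μg OVA with 1 mg alum, so no group is free of OVA exposure. On days 28 and 42 mice received 2.5 mg OVA NPs, 100 μg soluble OVA, or 100 μL PBS by the i.v. route. At the loading given in the study's methods, the NP dose carried the same mass of OVA as the soluble dose. B cells were taken on day 44 by magnetic negative selection, in which other cells are labelled and held back. Peyer's patches were digested with collagenase IV and DNase I at 37°C before selection, whereas spleens were dissociated mechanically and treated with ACK lysis. The labels call the samples biological replicates without saying whether each came from 1 mouse or a pool, so the p-values measure the spread between these samples. No group received empty particles, so the effect of the particle and the effect of how OVA was delivered cannot be told apart.

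Peyer's patches are the organized lymphoid tissue of the small intestine wall. Gut antigens and microbes keep germinal centers active there in healthy animals. In a germinal center, B cells divide rapidly in the dark zone while their immunoglobulin genes are mutated and class-switched, then compete for antigen and T cell help in the light zone. Resting follicular B cells around the germinal center express IgM, IgD, CD23, and the sphingosine-1-phosphate receptor S1PR1, which allows exit to lymph.

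Library totals were between 24274297 and 30052297 counts with soluble OVA and between 21239188 and 22683083 with OVA NPs. At these depths 3 counts, the smallest level treated as detectable, corresponded to between 0.0998 and 0.141 CPM (counts relative to the library total, scaled for composition with TMM), a limit that covers counting error only. The lineage genes of B cells were present in all 6 libraries. *Ms4a1* (CD20) was between 945.2 and 1179.9 CPM and *Cd79a*, a signaling chain of the B cell receptor, between 902.1 and 1193.3 CPM, and neither passed the test. Of 12 B cell identity genes, 3 passed as higher with OVA NPs and 0 as lower, beside 13.8% and 16.3% of all genes tested. The 3 were *Bank1*, *Fcmr*, and *Cd37*, with log2 fold changes of 0.58, 0.50, and 0.44. Replicate 1 of the OVA NP group stood apart from the other two for immediate-early genes: *Nr4a1* was at 96.5, 753, and 708 CPM in OVA NP replicates 1, 2, and 3.

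Peyer's patch B cells differed widely between the forms of OVA. With OVA NPs, most listed genes of cell division, DNA replication, and the germinal center were lower than with soluble OVA, and most of those of resting follicular and memory B cells were higher. Lists of homing, NF-κB, and MHC class II presentation had 10 of 20, 10 of 17, and 9 of 14 members higher, the last falling to 4 without any of 3 single libraries named with that list. Among heavy-chain transcripts, *Ighg1* was higher and *Ighg2b* lower with OVA NPs. Of 15599 genes tested with edgeR's quasi-likelihood test, 2159 (13.8%) were differentially expressed genes (DEGs) higher with OVA NPs and 2538 (16.3%) were DEGs lower. A DEG had to pass an adjusted p of 0.05 and differ by more than 0.25 on the log2 scale. The median log2 fold change over all tested genes was 0.025. Among DEGs, 748 had a log2 fold change above 1 and 365 had one below -1. The CPM of every OVA NP library lay above every soluble OVA library for 3556 genes (22.8%) and below for 3996 (25.6%). The number of higher DEGs rested in part on single libraries: it was 1304 without OVA NP replicate 2 and 1432 without OVA NP replicate 3.

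**Figure D1:**
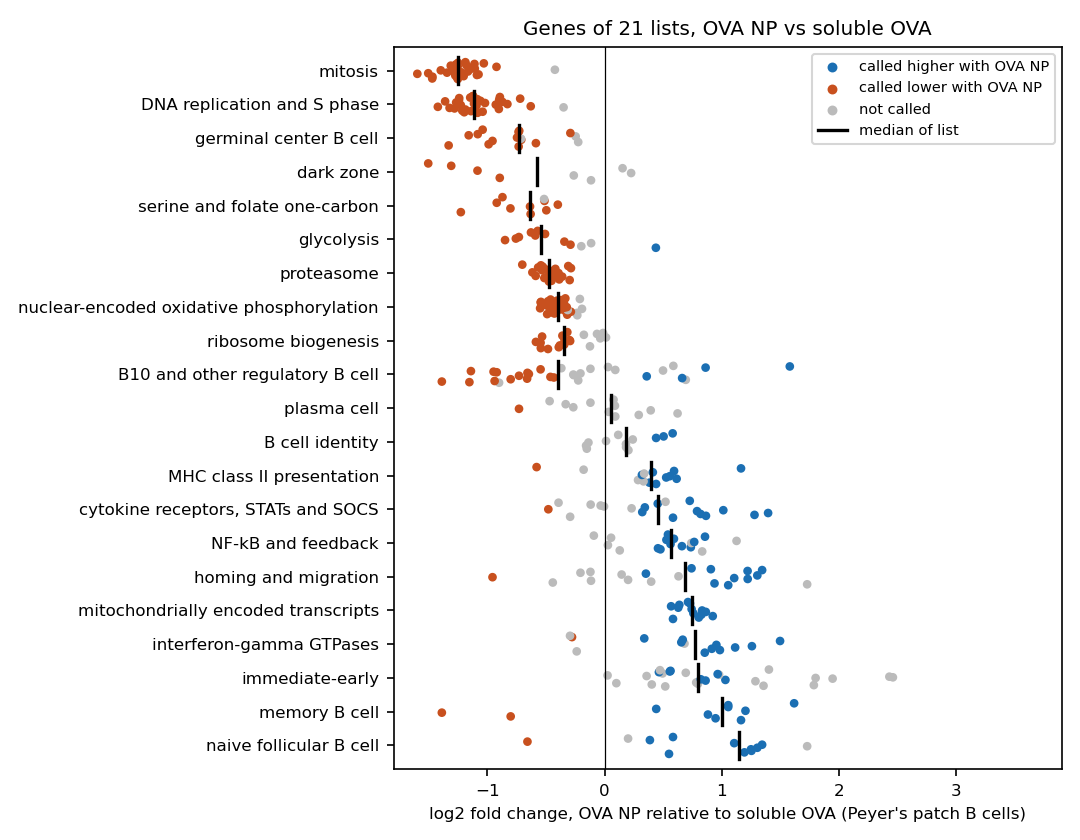
Log2 fold change (x axis) of each tested gene of 21 lists (rows) in Peyer's patch B cells, OVA NP relative to soluble OVA. Points are genes, colored by whether they were DEGs, and black bars are list medians. The mitosis and DNA replication lists lie left of 0 with medians of -1.25 and -1.11, and the naive follicular list lies mostly right of 0 with a median of 1.15.

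Cell division genes were lower with OVA NPs almost without exception. Of 30 mitosis genes, 29 were DEGs lower with OVA NPs and 0 were higher, with a median log2 fold change of -1.25, and all 30 had the OVA NP libraries below the soluble OVA libraries. *Plk1*, the Polo-like kinase that drives mitotic entry, was at 47.2, 55.9, and 59.0 CPM with OVA NPs and at 164, 168, and 162 CPM with soluble OVA. The groups were far apart, about 54.0 ± 6.11 against 165 ± 2.77 CPM (mean ± SD, n = 3 each), a log2 fold change of -1.60 (SE 0.085, adjusted p = 1.29e-04). *Cdc20*, the activator of the anaphase-promoting complex, was at 64.2, 81.0, and 83.9 CPM with OVA NPs and at 210, 224, and 205 CPM with soluble OVA (log2 fold change -1.47). *Aurka*, the centrosomal Aurora kinase, and *Ccnb1*, the mitotic cyclin B1, were lower by the same order, at -1.504 and -1.470. *Mki67*, the proliferation marker Ki-67, was at 572, 852, and 818 CPM against 1624, 1797, and 1695 CPM, so OVA NP replicate 1 was the lowest of the 3 but no library crossed between groups. *Cdkn1b*, which encodes the cell cycle inhibitor p27, went the other way, at 126, 120, and 128 CPM with OVA NPs and 53.0, 50.7, and 55.9 CPM with soluble OVA (log2 fold change 1.24, adjusted p = 1.29e-04).

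DNA replication and S phase genes followed the mitosis genes. Of 32, 31 were DEGs lower with OVA NPs, with a median of -1.11. *Mcm5* and *Mcm6* encode subunits of the replicative helicase. *Mcm5* was at 184, 240, and 268 CPM with OVA NPs and 526, 525, and 483 CPM with soluble OVA (log2 fold change -1.14), and *Mcm6* had a log2 fold change of -1.21. The helicase assembly factors *Gins1* and *Cdc45* were lower by -1.42 and -1.32, and *Uhrf1*, which maintains DNA methylation behind the replication fork, by -1.24. The least changed of the named members was *Pcna*, the polymerase sliding clamp, at -0.90 (199, 237, and 276 CPM against 455, 456, and 428 CPM). Bulk RNA cannot tell fewer dividing cells in a sample from less of these transcripts in each cell, and the same holds for every gene group below.

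Genes of the mitosis list often carry the CHR element (TTTGAA) close to their start, and S phase genes often carry an E2F-type element (here TTTNNCGC). Promoters were read from RefSeq for GRCm38.p6, 250 bases before to 50 bases after each start, on both strands, for the 26 of 30 mitosis genes and the 26 of 32 S phase genes with an entry. TTTGAA was present in 20 of 27 mitosis promoters (74.1%), compared with 17.9% of all 32851 promoters. TTTNNCGC was present in 12 of 30 S phase promoters (40%), compared with 5.17% of all. CCAAT, the box bound by NF-Y, was in 74.1% of mitosis and 63.3% of S phase promoters and in 37.4% of all. These are matches of letters and say nothing of binding in these cells. The 100 bases before the start of *Cdc20* (chr4:118437344-118437443, minus strand) and *Prc1* (chr7:80294376-80294475, plus strand), which encodes a bundler of spindle microtubules, are shown with TTTGAA in capitals, and those of *Uhrf1* (chr17:56303237-56303336, plus strand) and *Mcm6* (chr1:128359706-128359805, minus strand) with TTTNNCGC in capitals. They are shown because these genes were among those that differed most and each has its element within 56 bases of the start.
Cdc20: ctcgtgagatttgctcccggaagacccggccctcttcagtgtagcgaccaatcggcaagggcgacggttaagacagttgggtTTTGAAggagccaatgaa
Prc1: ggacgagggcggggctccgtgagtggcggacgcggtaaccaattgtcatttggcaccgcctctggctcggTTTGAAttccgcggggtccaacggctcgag
Uhrf1: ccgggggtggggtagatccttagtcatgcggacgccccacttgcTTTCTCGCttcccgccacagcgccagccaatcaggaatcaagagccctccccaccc
Mcm6: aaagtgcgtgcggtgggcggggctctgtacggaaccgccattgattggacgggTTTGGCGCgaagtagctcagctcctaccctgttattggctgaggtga

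Germinal center genes were lower with OVA NPs as well, by less than the division genes. Of 16 genes that mark germinal center B cells, 13 were DEGs lower, 0 were higher, and the median was -0.73. *Bcl6*, the transcription factor that defines the germinal center state, was at 146, 212, and 202 CPM against 336, 299, and 301 CPM, 187 ± 35.4 against 312 ± 20.8 CPM (log2 fold change -0.73, SE 0.133, adjusted p = 0.0044). The guidance molecules *Efnb1* and *Plxnb2*, which act in contacts between germinal center B cells and follicular helper T cells, were at -1.16 and -1.08. *Nuggc*, a GTPase of germinal center B cells, was at -1.04, *S1pr2*, the receptor that confines cells to the germinal center, at -0.96, and the death receptor *Fas* at -0.59. In each of these 6 genes every OVA NP library was below every soluble OVA library.

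Not all germinal center genes passed. *Rgs13*, a regulator of chemokine receptor signaling, overlapped between groups (72.1, 118, and 122 CPM against 101, 133, and 133 CPM), and *Neil1*, a base excision repair glycosylase, had a log2 fold change of -0.71 with an adjusted p of 0.0725. Of 8 dark zone genes, 4 were DEGs lower: *Aurka*, *Hmmr*, *Polh*, and *Ccnd3*. *Polh*, the error-prone polymerase of somatic hypermutation, was at 56.1, 82.8, and 84.2 CPM against 163, 162, and 152 CPM, and *Ccnd3*, the cyclin that sustains dark zone division, at 167, 186, and 199 CPM against 348, 340, and 344 CPM. The dark zone chemokine receptor *Cxcr4* did not separate the groups (210, 387, and 326 CPM against 349, 370, and 287 CPM).

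**Figure D2:**
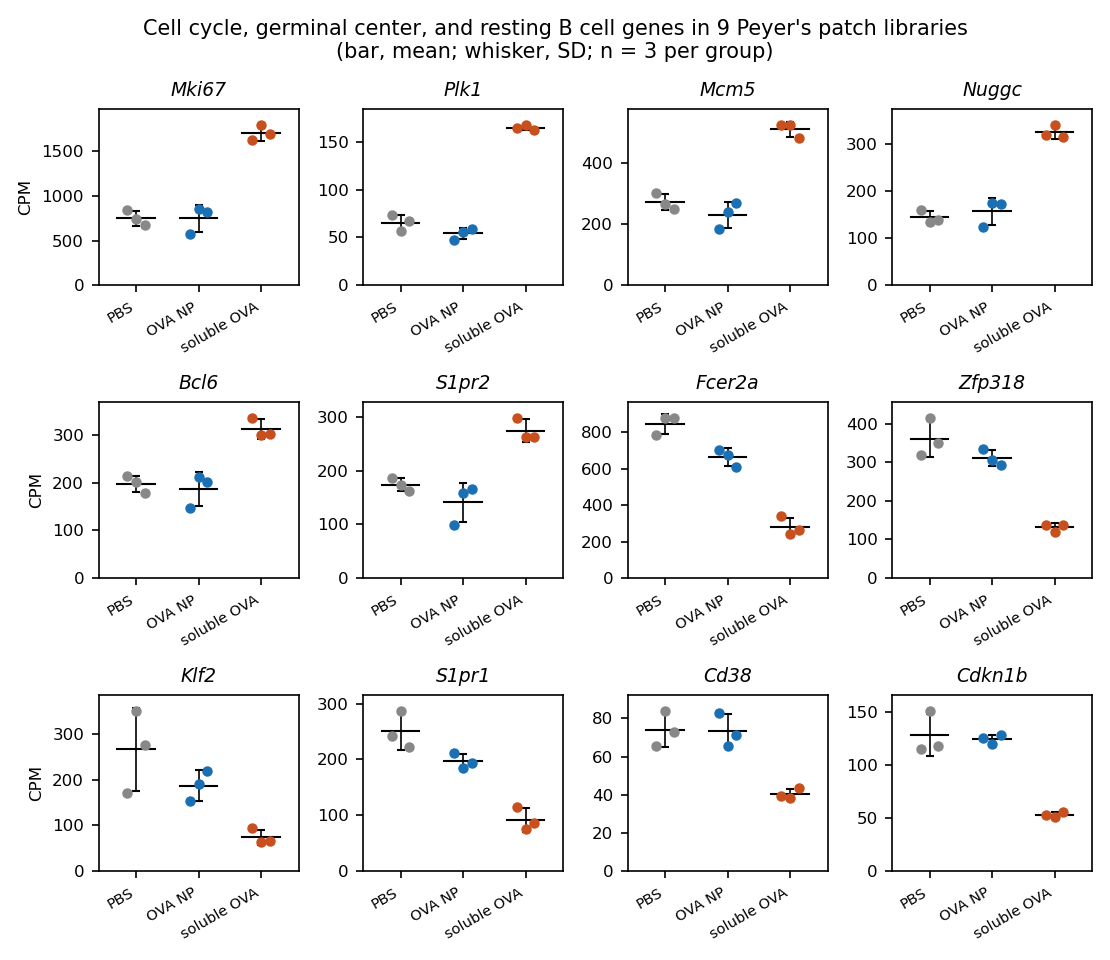
CPM (linear y axis from 0) of 12 genes in the 9 Peyer's patch libraries. Points are libraries, horizontal bars are means, and whiskers are SDs (n = 3 per group). The soluble OVA libraries stand apart from both other groups in every panel, above them for the 6 cell cycle and germinal center genes and below them for the 6 genes of resting cells.

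Genes of resting follicular B cells were higher with OVA NPs. Of 12 naive follicular genes, 9 were DEGs higher, 1 was lower, and the median log2 fold change was 1.15. *Fcer2a*, which encodes the low-affinity IgE receptor CD23, was at 705, 677, and 612 CPM with OVA NPs and at 338, 243, and 262 CPM with soluble OVA, 665 ± 47.3 against 281 ± 50.4 CPM (log2 fold change 1.25, SE 0.145, adjusted p = 7.91e-04). *Zfp318*, the factor that permits IgD expression, was at 334, 305, and 294 CPM against 138, 120, and 138 CPM, and *Ighd* had a log2 fold change of 1.19, close to the 1.25 of *Zfp318*. *Klf2*, the transcription factor of quiescent recirculating lymphocytes, was at 153, 191, and 219 CPM against 93.4, 64.3, and 64.7 CPM (log2 fold change 1.34, adjusted p = 0.00418), and *S1pr1* was higher by 1.11. The member that was lower is *Bach2*, a repressor of plasma cell differentiation that germinal center cells also express, at 211, 269, and 237 CPM against 422, 375, and 340 CPM. *Ccr7*, the receptor for T zone chemokines, was split within the OVA NP group (59.4, 206, and 207 CPM against 70.2, 38.7, and 33.1 CPM) and did not pass (adjusted p = 0.107). Without OVA NP replicate 1 its log2 fold change was 2.07 (adjusted p = 0.032).

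Memory B cell genes differed in all 10 members, 8 higher and 2 lower with OVA NPs. *Cd38*, which resting and memory cells keep and mouse germinal center cells lose, was at 82.9, 65.7, and 71.4 CPM against 39.2, 38.0, and 43.5 CPM. The survival gene *Bcl2* was at 114, 96.3, and 90.6 CPM against 49.9, 44.1, and 52.0 CPM, and *Hhex*, a factor of memory B cell formation, at 103, 75.0, and 79.99 CPM against 42.2, 30.2, and 40.8 CPM. *Cd27* was at 4.14, 3.89, and 3.64 CPM with OVA NPs and at 1.05, 1.21, and 1.59 CPM with soluble OVA. The lower members were *Zbtb32* (log2 fold change -1.39) and *Nt5e*, the ectoenzyme CD73 (-0.80), both of which also stand in the regulatory B cell list below. The costimulatory ligands *Cd80* and *Pdcd1lg2* are the members that rest most on single libraries: *Cd80* was no longer called without OVA NP replicate 2 or 3 or without soluble OVA replicate 2 or 3 (adjusted p from 0.0801 to 0.129), and *Pdcd1lg2* without OVA NP replicate 2 or soluble OVA replicate 2 or 3 (from 0.0752 to 0.12).

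Homing genes were higher in 10 of 20 tested members and lower in 1, *S1pr2* (2 without OVA NP replicate 3). *Itgb7*, a chain of the gut-homing integrin α4β7, was at 192, 150, and 152 CPM with OVA NPs and at 81.9, 62.1, and 69.9 CPM with soluble OVA. *Ccr6*, the receptor that draws B cells under the follicle-associated epithelium, was at 86.5, 81.2, and 79.95 CPM against 44.9, 36.7, and 38.5 CPM. *Gpr183* (EBI2), which positions B cells at the follicle edge, was higher by 1.22 and *Ccr9*, a small intestine homing receptor, by 0.94. The library spread was small beside these differences for *Ccr6* and larger for *Gpr183*, whose soluble OVA libraries ran from 29.1 to 55.3 CPM. *Gpr183* lost its call without OVA NP replicate 2 (adjusted p = 0.0652), OVA NP replicate 3 (0.0674), or soluble OVA replicate 3 (0.0868).

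The heavy-chain genes *Ighg2b* and *Ighg1* had the largest log2 fold changes among DEGs with a mean of at least 100 CPM. *Ighg2b* was at 189, 75.5, and 111 CPM with OVA NPs and at 1691, 1520, and 1310 CPM with soluble OVA, a log2 fold change of -3.57 (SE 0.415, adjusted p = 0.0038). It made up 3.62%, 1.66%, and 2.42% of the heavy-chain counts with OVA NPs and 32%, 31%, and 28.6% with soluble OVA. *Ighg1* moved the other way, at 546, 950, and 929 CPM with OVA NPs and 152, 203, and 178 CPM with soluble OVA (log2 fold change 2.20, SE 0.225, adjusted p = 0.00118). Its share of heavy-chain counts was 10.5%, 20.9%, and 20.3% against 2.87%, 4.15%, and 3.89%. In the PBS group the *Ighg2b* share was 1.79%, 3.34%, and 3.43% and the *Ighg1* share 21.4%, 16.9%, and 19.9%, so the soluble OVA libraries were the ones that stood apart.

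*Ighm* and *Ighd*, the unswitched isotypes, were higher with OVA NPs, by 0.55 and 1.19. *Ighg3* and *Ighg2c* were lower, by -0.88 and -2.12, the latter at no more than 14.1 CPM in any of the 6 libraries. Both lost the call without OVA NP replicate 2 (adjusted p = 0.0662 and 0.0544) or replicate 3 (0.0626 and 0.0681). *Igha*, the isotype that Peyer's patches chiefly produce, overlapped between groups at 1152, 844, and 622 CPM with OVA NPs and 1388, 1250, and 1077 CPM with soluble OVA (log2 fold change -0.49, adjusted p = 0.205). *Ighe* was at 0.736, 2.97, and 6.97 CPM with OVA NPs and at 1.33, 0.862, and 1.17 CPM with soluble OVA, which did not pass (adjusted p = 0.131). The reference genome is from another strain than BALB/c, and *Ighg2a* has no values in the table, so reads of an IgG2 gene could have been assigned to another. Whether this entered the *Ighg2b* and *Ighg2c* values was not tested.

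**Figure D3:**
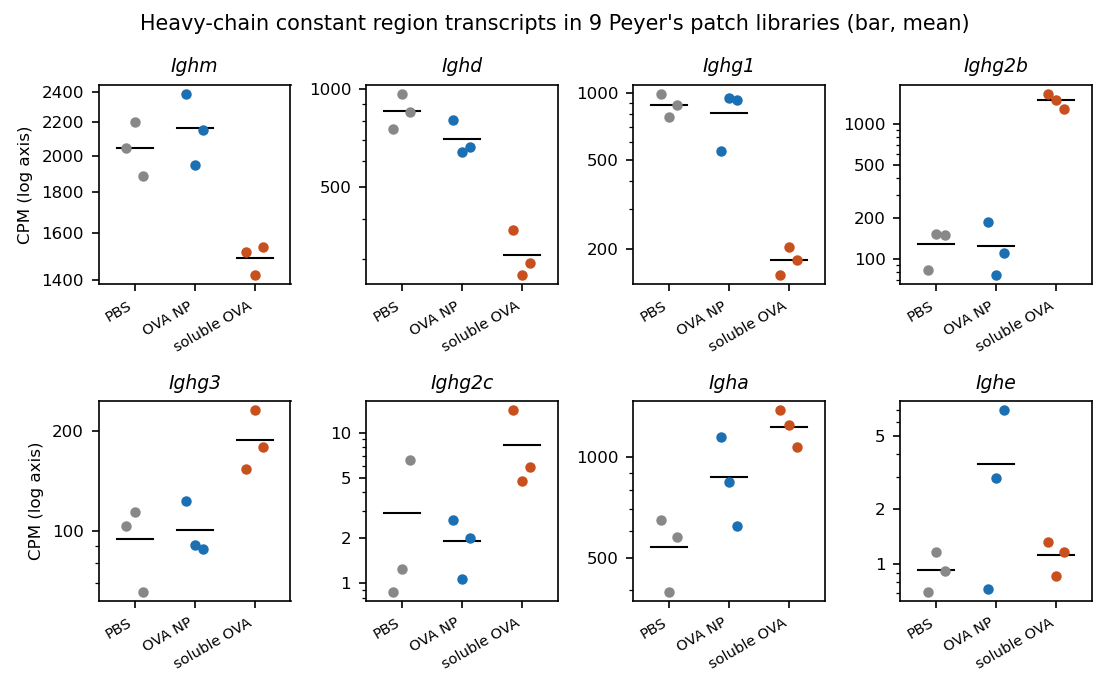
CPM (log y axis, scaled separately in each panel) of 8 heavy-chain constant region transcripts in the 9 Peyer's patch libraries. Points are libraries and bars are means. The 3 soluble OVA libraries have *Ighg2b* between 1310 and 1691 CPM and *Ighg1* between 152 and 203 CPM, outside the range of both other groups.

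Of 12 tested plasma cell genes, 1 was a DEG, lower with OVA NPs, beside 16.3% lower of all genes tested. It was *Mzb1*, a chaperone of IgM assembly, at 106, 113, and 112 CPM with OVA NPs and 206, 177, and 168 CPM with soluble OVA. *Prdm1*, which encodes the master regulator Blimp-1, was at 7.58, 11.9, and 10.97 CPM against 10.5, 9.40, and 8.81 CPM. *Jchain*, the joining chain of IgM and IgA polymers, was at 734, 676, and 612 CPM against 677, 700, and 617 CPM. Both overlapped between the groups. The number lower in this list was 3 without OVA NP replicate 1 and 2 without OVA NP replicate 2 or soluble OVA replicate 1, and 1 member was higher without OVA NP replicate 1 or soluble OVA replicate 1.

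NF-κB genes were higher with OVA NPs in 10 of 17 members, lower in 0, with a median of 0.56. *Nfkb2*, the precursor of the noncanonical subunit p52, was at 238, 234, and 235 CPM with OVA NPs and at 154, 135, and 140 CPM with soluble OVA (log2 fold change 0.74, adjusted p = 5.64e-04). *Nfkbia*, the inhibitor that NF-κB itself induces, was at 161, 177, and 162 CPM against 110, 98.4, and 111 CPM. *Malt1*, a protease of the complex that links the B cell receptor to NF-κB, was higher by 0.82. *Tnfaip3*, which encodes the feedback inhibitor A20, was at 75.8, 270, and 223 CPM against 110, 75.2, and 75.6 CPM and did not pass (adjusted p = 0.187), whereas without OVA NP replicate 1 it was higher by 1.45 (adjusted p = 0.0085).

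Light zone and immediate-early genes shared this dependence on OVA NP replicate 1. Of 12 light zone activation genes, 5 were DEGs higher with OVA NPs and 1, *Cd86*, was lower, and without replicate 1 the number higher was 9. Leaving out any of OVA NP replicates 2 and 3 and soluble OVA replicates 2 and 3 gave 2 or 3. *Cd83*, an activation marker of light zone B cells, was at 495, 777, and 768 CPM with OVA NPs and 462, 323, and 346 CPM with soluble OVA (log2 fold change 0.86, adjusted p = 0.0302), a call lost without any of the same 4 libraries (adjusted p from 0.0839 to 0.0982). *Myc* overlapped between groups (62.6, 139, and 143 CPM against 96.2, 78.1, and 74.5 CPM). Of 27 immediate-early genes, 7 were DEGs higher, among them *Ier5* (394, 371, and 363 CPM against 244, 214, and 186 CPM), and 18 were higher without replicate 1. The number was 2 without OVA NP replicate 2 and 4 without OVA NP replicate 3 or soluble OVA replicate 2 or 3. *Nr4a1*, an immediate reporter of antigen receptor signaling, was at 233, 102.1, and 109 CPM with soluble OVA and was not called (adjusted p = 0.207). Without replicate 1 its log2 fold change was 2.24 (adjusted p = 0.0438).

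Antigen presentation genes differed modestly. Of 14 MHC class II presentation genes, 9 were DEGs higher and 1 was lower, with a median of 0.40, and 4 were higher without OVA NP replicate 2, soluble OVA replicate 2, or soluble OVA replicate 3. *Ciita*, the transactivator of class II genes, was at 793, 785, and 738 CPM with OVA NPs and 660, 540, and 555 CPM with soluble OVA (log2 fold change 0.41, adjusted p = 0.0172). *H2-Aa*, a chain of the class II molecule I-A, was at 770, 858, and 797 CPM against 695, 572, and 533 CPM. *Ciita* and *H2-Aa* lost the call without any of the same 3 libraries (adjusted p from 0.0529 to 0.0763). *H2-DMb1* and *Ctss*, which load and trim class II peptides, were higher by 0.61 and 0.59. *Cd86*, the costimulatory ligand that was lower, was at 34.3, 52.3, and 44.1 CPM against 72.0, 58.9, and 65.7 CPM (not called without soluble OVA replicate 1 or 3, adjusted p = 0.0645 and 0.0644), and its paralog *Cd80* was higher, at 5.06, 11.2, and 8.83 CPM against 4.62, 2.47, and 4.13 CPM.

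Of 13 tested genes of T cell help and costimulation, 6 were DEGs higher with OVA NPs and 1 was lower, and 2 were higher without soluble OVA replicate 2 or 3. *Icosl*, the ligand of ICOS on follicular helper T cells, was at 354, 285, and 282 CPM against 214, 168, and 198 CPM. *Cd274*, which encodes the inhibitory ligand PD-L1, was at 56.8, 144, and 127 CPM against 45.8, 32.2, and 31.9 CPM (log2 fold change 1.58, adjusted p = 0.0438). Its OVA NP libraries were the more spread, with replicate 1 the lowest, and its call held without that replicate but was lost without each of the other 5 libraries (adjusted p from 0.0564 to 0.136). *Pdcd1lg2* (PD-L2) was higher by 0.95.

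Cytokine receptor genes, STATs, and SOCS genes were higher in 11 of 19 members and lower in 1, *Tgfbr1*, a receptor for TGF-β (2 lower without OVA NP replicate 2). *Il6st*, the shared gp130 receptor chain, was at 29.5, 47.0, and 47.4 CPM with OVA NPs and 14.9, 14.4, and 18.1 CPM with soluble OVA (log2 fold change 1.39, adjusted p = 0.00132). *Il10ra*, the IL-10 receptor, was at 90.1, 106, and 116 CPM against 52.7, 37.7, and 39.1 CPM (log2 fold change 1.28). *Ifnar1*, a chain of the type I interferon receptor, and *Il2rg*, the common γ chain, were higher by 1.01 and 0.86. *Il4ra*, the IL-4 receptor, was at 209, 215, and 192 CPM against 164, 126, and 124 CPM. *Tgfbr1* was at 65.7, 79.3, and 80.1 CPM against 107, 97.3, and 112 CPM.

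Interferon-γ–induced GTPases and related genes, which restrict intracellular pathogens, were higher in 10 of 14 members and lower in 1, with a median of 0.77, and 6 were higher without soluble OVA replicate 2. The number lower was 0 without soluble OVA replicate 1 and 2 without soluble OVA replicate 2 or any OVA NP library. *Gbp4* was at 83.2, 83.7, and 81.7 CPM with OVA NPs and 43.0, 35.3, and 48.6 CPM with soluble OVA, *Gbp7* at 16.6, 14.5, and 17.98 CPM against 7.03, 5.88, and 7.77 CPM, and the transcription factor *Irf1* was higher by 0.67. The 25 genes of the broader interferon-stimulated list had 5 DEGs higher and 0 lower, beside 13.8% and 16.3% of all genes tested. Between 3 and 10 were higher when 1 library was left out (3 without OVA NP replicate 1 or 3 or soluble OVA replicate 1 or 2, 10 without soluble OVA replicate 3). The lower counts are near the share over all genes. A promoter entry was found for 11 of the 14 GTPase list genes. The core of the interferon-stimulated response element, searched as TTTC, 2 bases of any kind, and TTTC, was present in 7 of their 13 promoters (53.8%), compared with 3.44% of all promoters. The 100 bases before the start of *Gbp7* (chr3:142530236-142530335, plus strand) are shown, as one of the members that carry this element and were DEGs, with that core in capitals.
Gbp7: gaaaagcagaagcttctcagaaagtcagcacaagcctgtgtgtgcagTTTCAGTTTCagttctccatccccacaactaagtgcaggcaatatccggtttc

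Lists of protein turnover and metabolism had more members lower than higher with OVA NPs, to differing extents. All 25 proteasome genes were DEGs lower, with a median of -0.47 and a narrow range from -0.70 to -0.29. *Psmd14*, the deubiquitinase of the proteasome lid, was at 58.7, 59.7, and 64.9 CPM against 98.3, 106, and 96.3 CPM. Of 30 nuclear-encoded oxidative phosphorylation genes, 25 were DEGs lower (median -0.40), of 12 glycolysis genes 9 were lower and 1 higher (median -0.54, with 0 higher without replicate 2 or 3 of either group), and of 10 serine and folate one-carbon enzymes 9 were lower (median -0.63). *Psat1*, an enzyme of serine synthesis, was at 40.3, 60.1, and 56.8 CPM against 132, 125, and 113 CPM, and *Tpi1*, a glycolytic isomerase, at 151, 143, and 160 CPM against 276, 291, and 259 CPM. Ribosome biogenesis genes were lower in 14 of 20 (median -0.34) and cytosolic ribosomal protein genes in 14 of 30 (median -0.24). The latter fell to 5, 6, and 9 without soluble OVA replicates 1, 2, and 3. Of these, 5 and 6 are near the share over all genes tested, 16.3% lower. Of 16 cholesterol synthesis genes 5 were lower, 0 were higher (1 without OVA NP replicate 3), and 11 did not pass (median -0.13).

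Transcripts encoded by the mitochondrial genome went against the nuclear genes of the same complexes. All 13 were DEGs higher with OVA NPs, with a median of 0.74. *mt-Nd4*, a complex I subunit, was at 5780, 5934, and 6000 CPM with OVA NPs and 3200, 3413, and 3477 CPM with soluble OVA. Together the mitochondrial transcripts took 9.29%, 9.8%, and 9.08% of counts with OVA NPs, 4.97%, 6.02%, and 5.51% with soluble OVA, and 7.67%, 5.41%, and 6.74% with PBS. A high mitochondrial share can also mark stressed or damaged cells, and its part in the other differences was not tested. With these transcripts removed before scaling, 1982 DEGs were higher and 2877 lower.

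Regulatory B cell genes were mixed. Of 30 genes reported for IL-10–secreting B10 cells and other regulatory B cells, 14 were DEGs lower, 4 were higher, 12 did not pass, and the median was -0.40. The list was taken in part from genes the study picked by their change between OVA NP and PBS mice of this series, so it is not independent evidence of a direction. *Lipc*, hepatic lipase, was at 16.2, 23.4, and 25.4 CPM against 46.1, 52.7, and 46.5 CPM, *Zbtb32*, a repressor of memory recall responses, at 7.45, 5.10, and 8.79 CPM against 19.4, 18.1, and 18.9 CPM, and *Nt5e* at 36.8, 56.4, and 49.2 CPM against 89.7, 78.6, and 81.3 CPM. The higher members were *Cd274*, *Ebi3*, a subunit of IL-35 and IL-27, *Ccnd2*, a D-type cyclin, and *Pdia4*, an ER isomerase. The number higher was 3 without OVA NP replicate 3, 2 without OVA NP replicate 1 or 2 or soluble OVA replicate 3, and 1 without soluble OVA replicate 1 or 2. *Il10* itself was at 0.0919, 0.649, and 0.455 CPM against 0.595, 0.588, and 1.09 CPM, with 1 OVA NP library below the level of 3 counts (adjusted p = 0.328). A difference in *Il10* was not detectable at this depth.

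The genes with the largest changes were mostly of low abundance. Among DEGs with a mean of at least 1 CPM and no overlap, the 10 with the largest increases had log2 fold changes from 2.10 to 3.21 and included *Hp*, *Rec8*, *Atp1b2*, *Emp2*, *Ramp3*, *Kctd15*, *Ddx43*, *Prkar2b*, and *Csf2*. *Emp2*, a tetraspan membrane protein, was the most abundant of them, at 25.1, 34.7, and 32.0 CPM with OVA NPs and 4.41, 7.13, and 5.47 CPM with soluble OVA (log2 fold change 2.45, SE 0.185, adjusted p = 2.56e-04). *Ddx43*, an RNA helicase, was at 5.79, 8.25, and 10.3 CPM against 1.15, 1.88, and 1.88 CPM. *Csf2*, which encodes the cytokine GM-CSF, was at 1.24, 5.01, and 3.64 CPM against 1.119, 0.783, and 0.376 CPM, so its groups were close to touching. Of these 9, *Emp2*, *Ddx43*, and *Kctd15* stayed called whichever library was left out, while the other 6 lost the call without at least 1 library, at adjusted p from 0.0555 to 0.144. OVA NP replicate 3 was well above replicates 1 and 2 for *Hp*, *Atp1b2*, *Prkar2b*, and *Rec8*. In replicates 1, 2, and 3, *Hp* was at 0.644, 1.11, and 3.73 CPM and *Atp1b2* at 0.873, 1.25, and 4.87 CPM. A list of 9 neutrophil genes summed to 3.86, 4.22, and 20.5 CPM in the same libraries. Both of its 2 tested members were DEGs higher, and 0 to 2 were with 1 library left out.

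The 10 with the largest decreases were *Ccdc190*, *Clgn*, *Cntn2*, *Tcerg1l*, *Rp1l1*, *Lrrc32*, *Lmntd1*, *Tubb3*, *Foxo6*, and *Serpinf1*, with log2 fold changes from -2.72 to -1.92. *Lrrc32* encodes GARP, the protein that tethers latent TGF-β to the cell surface. It was at 3.54, 7.93, and 5.69 CPM with OVA NPs and 25.9, 22.9, and 22.3 CPM with soluble OVA (log2 fold change -2.04, SE 0.259, adjusted p = 0.00125). *Cntn2* was at 1.195, 1.530, and 1.502 CPM against 7.21, 6.31, and 6.56 CPM, and *Ccdc190* at 0.644, 0.649, and 0.410 CPM against 3.92, 3.96, and 3.51 CPM. All 3 were well separated despite their low levels. *Lmntd1* lost its call without any of OVA NP replicates 1 and 3 and soluble OVA replicates 1 and 3 (adjusted p from 0.0583 to 0.0924), and the other 9 kept theirs.

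Markers of other cells moved with treatment at low levels. Of 18 T cell genes, 13 were higher with OVA NPs and 1, *Lck*, was lower (median 1.36). The list summed to between 198.2 and 225.9 CPM with OVA NPs and between 189.1 and 216.1 CPM with soluble OVA. *Lck* was the largest part of both sums, at 103.5 to 121.5 CPM with OVA NPs and 149.1 to 172.2 CPM with soluble OVA. The near-equal sums thus do not show how the other members differed. *Cd3e* was at 5.75, 4.91, and 4.64 CPM against 2.13, 0.979, and 1.59 CPM, and *Trac* was below 1 CPM in every library. Of 11 NK and innate lymphoid genes 6 were higher (119.9 to 162.5 CPM summed, against 60.79 to 71.05), of 14 tested monocyte and macrophage genes 10 were higher (344.3 to 481.1 CPM against 213.8 to 253.4), and of 10 conventional dendritic cell genes 8 were higher and 1 lower (104.3 to 110.1 CPM against 63.74 to 67.61). *Lyz2*, a myeloid lysozyme, was at 104, 136, and 184 CPM against 72.3, 81.0, and 73.4 CPM. Of 8 tested mast cell and basophil genes 4 were higher (276 to 385 CPM against 118.5 to 243.3). With 1 library left out, these numbers of higher genes ran from 8 for T cells (without OVA NP replicate 2 or soluble OVA replicate 2), from 4 for monocytes (without OVA NP replicate 3), from 5 for dendritic cells (without OVA NP replicate 2 or 3), and from 1 (without OVA NP replicate 2 or soluble OVA replicate 2) to 8 (without soluble OVA replicate 3) for mast cells. Of these lists, 0 had a member at 0 in all 3 OVA NP libraries, and with soluble OVA 1 mast cell gene was at 0 in all 3. Of 8 erythroid genes 2 reached the count filter and both were higher, and 3 were at 0 in all soluble OVA libraries (40.13 to 67.25 CPM summed with OVA NPs, against 24.47 to 31.21). The number of erythroid genes higher was 0 without OVA NP replicate 3 or soluble OVA replicate 2, and 1 without OVA NP replicate 1 or 2 or soluble OVA replicate 3. The part of these cells in the gene groups above was not tested. Dendritic cells and macrophages also express class II and cytokine receptor genes.

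Intestinal epithelium did not divide the groups. Of 14 epithelial genes 1 was higher, *Krt18*, and 0 were lower, beside 13.8% and 16.3% of all genes tested. The list summed to between 1162.5 and 2279.2 CPM with OVA NPs and between 660.4 and 2678.2 CPM with soluble OVA. *Vil1*, the brush border protein villin, was at 225, 105, and 144 CPM against 56.4, 253, and 200 CPM, and *Epcam* at 131, 60.0, and 76.9 CPM against 33.8, 136, and 137 CPM. Libraries within a group thus differed severalfold in epithelial transcripts. Of 15 tested stromal and endothelial genes 1 was higher, beside 13.8% of all genes tested. It was *Pecam1*, the adhesion molecule CD31 (145, 144, and 136 CPM against 100, 74.8, and 81.6 CPM), which B cells also express. Without soluble OVA replicate 3 the number higher was 3.

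**Figure D4:**
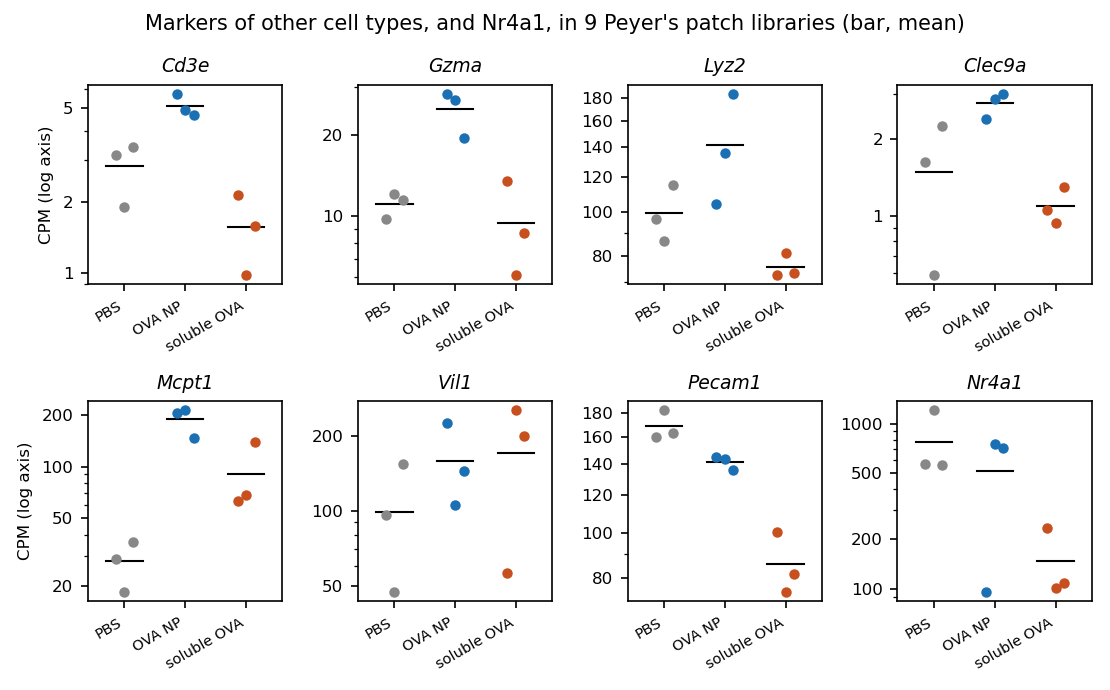
CPM (log y axis, scaled separately in each panel) of 7 genes from the lists of other cell types, and of *Nr4a1*, in the 9 Peyer's patch libraries. Among the 7, *Pecam1* is also expressed by B cells. Points are libraries and bars are means. *Cd3e*, *Gzma*, *Lyz2*, *Clec9a*, *Mcpt1*, and *Pecam1* are higher in all 3 OVA NP libraries than in all 3 soluble OVA libraries, *Vil1* overlaps, and OVA NP replicate 1 lies far below replicates 2 and 3 for *Nr4a1*.

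Each form of OVA was also set beside the PBS group of Peyer's patch. These comparisons share libraries with each other and with the comparison above, so their values are given side by side and are not independent. Against PBS, soluble OVA had 2131 DEGs higher (13.5% of 15792 tested) and 2189 lower (13.9%). OVA NPs against PBS had 0 DEGs of 15798 (0%) by edgeR, with a smallest adjusted p of 0.0522 and 1573 genes at an unadjusted p under 0.05, whereas DESeq2 called 90 higher and 53 lower. The median log2 fold change of the mitosis list was 1.11 for soluble OVA against PBS and -0.12 for OVA NPs against PBS. For the germinal center list these were 0.66 and -0.07, for the naive follicular list -1.46 and -0.24, and for the memory list -1.08 and -0.02. Mitochondrial transcripts were the other way around, with -0.23 for soluble OVA and 0.49 for OVA NPs, but 0 of the 13 were DEGs in either comparison.

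The same held for single genes. *Plk1* was at 73.0, 56.3, and 66.9 CPM with PBS, a log2 fold change of 1.32 for soluble OVA (adjusted p = 8.22e-05) and -0.27 for OVA NPs (adjusted p = 0.483). *Fcer2a* was at 785, 881, and 878 CPM with PBS, -1.61 for soluble OVA (adjusted p = 9.00e-05) and -0.34 for OVA NPs (adjusted p = 0.285). *Emp2* was at 38.9, 24.1, and 33.7 CPM with PBS, -2.52 and -0.07. For these 3 genes the soluble OVA libraries lay outside the PBS range, and the OVA NP values overlapped it except for *Fcer2a*, whose OVA NP libraries were all lower than the PBS libraries. A missed threshold does not show that OVA NP and PBS samples were alike.

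In spleen, the same forms of OVA gave far fewer differences. Of 13840 genes tested in splenic B cells, 33 (0.238%) were DEGs between OVA NPs and soluble OVA, 19 higher and 14 lower. Whether the effect of OVA form differed between tissues was tested with an edgeR interaction term over 12 libraries, at an adjusted p of 0.05. Of 16471 genes, 1312 (7.97%) had a more positive log2 fold change in Peyer's patch than in spleen and 1476 (8.96%) a more negative one. The labels do not say whether the libraries of the 2 tissues came from the same mice, and the test treated them as independent. With the replicate number as a block in the fit, the numbers were 1112 and 1209. The tissues also differed in dissociation, digestion being used for Peyer's patch alone. The methods give no difference in handling between treatments within a tissue, but do not say whether the groups were processed together. The part of handling in the tissue difference was not tested.

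The division genes differed between tissues almost throughout: 29 of 30 mitosis genes and 30 of 32 S phase genes were more negative in Peyer's patch, and their medians in spleen were -0.13 and -0.05. Of 12 naive follicular genes 8 were more positive and 1 more negative (spleen median 0.01), and of 16 germinal center genes 4 were more negative (spleen median -0.36). *Plk1* differed by -1.43 between tissues (adjusted p = 1.78e-04) and *Fcer2a* by 1.43 (adjusted p = 2.36e-04). *Ighg2b* was at 13.0, 16.7, and 17.3 CPM in spleen with OVA NPs and 33.4, 20.3, and 30.6 CPM with soluble OVA, and its fold change differed by -2.72 (adjusted p = 0.00504). *Ighg1* was at 424, 470, and 380 CPM against 654, 430, and 674 CPM in spleen, a difference of 2.67 between tissues (adjusted p = 8.97e-04).

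**Figure D5:**
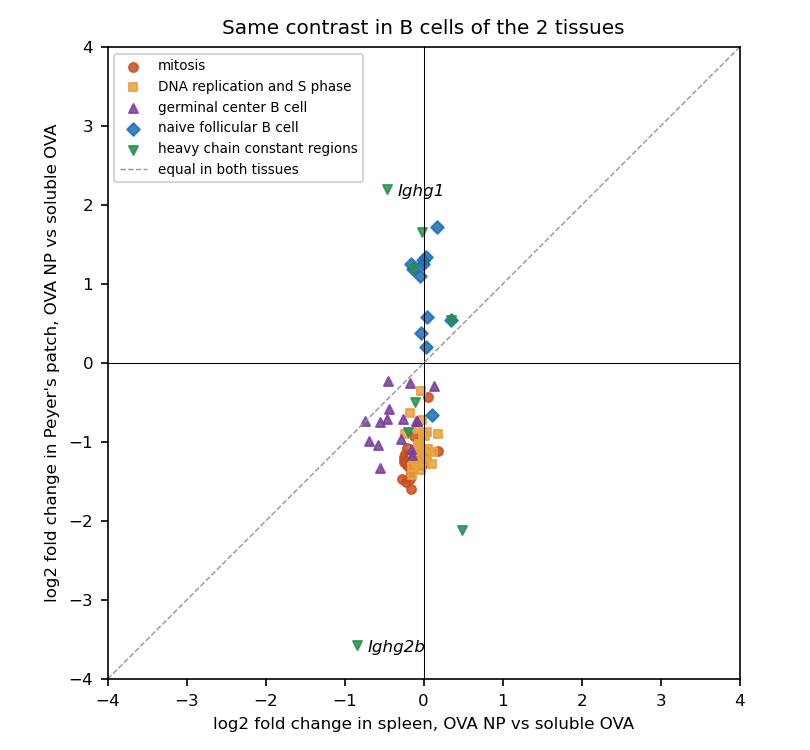
Log2 fold change of OVA NP relative to soluble OVA in spleen (x axis) and Peyer's patch (y axis) for genes of 5 lists. Points are genes and the dashed line marks equal values in both tissues. Mitosis, S phase, and naive follicular genes spread along the y axis but stay close to 0 on the x axis, and *Ighg1* and *Ighg2b* lie far from the dashed line.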

How the data were processed

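B cell RNA from Peyer's patch and spleen of OVA-sensitized mice was sequenced from poly(A) libraries. Per the submitters' processing notes, the authors used cutadapt 2.3, STAR 2.7.8a, and RSEM 1.3.3 with GRCm38. The deposited table holds expected counts for 55491 genes in 18 libraries, all whole numbers (0 values were not whole), so no further rounding changed them. There were 4 rows without a gene ID, holding 0 counts, and these were left out.

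The 3 OVA NP and 3 soluble OVA libraries of Peyer's patch were grouped by their labels and compared in R 4.3.3 with edgeR 4.0.16 (TMM scaling, filterByExpr with a minimum count of 10 and minimum total of 15, robust quasi-likelihood F test, Benjamini-Hochberg adjustment over all genes tested). Genes at an adjusted p below 0.05 that differed by more than 0.25 on the log2 scale were called DEGs. Each form of OVA was compared with PBS in the same way, and the tissue difference was an interaction term over 12 libraries. Depth was between 21239188 and 30052297 counts in the 6 libraries. No replicates held identical values.

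Alternatives were DESeq2 1.42.0, its size factors, other filters, more libraries in the fit, a replicate block, removal of antigen receptor or mitochondrial genes, and leaving out each library. The script was tested on simulated data. The gene lists, and the choice of this comparison, were made with earlier results of these data known. Named genes were up to 10 per direction with the largest change among DEGs without overlap and with a mean of at least 1 CPM, up to 4 per list, a few checks, and 5 per direction for the tissue difference. Other list members that are named were chosen after their values were seen. A few genes that these rules select are not reported here.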

Additional observations from a re-analysis of the deposited data

Results flagged for a closer look

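The effect of OVA form differed between Peyer's patch and spleen for 2788 genes, by the interaction test of edgeR over 12 libraries at an adjusted p under 0.05. Values here are log2 fold changes of OVA NP relative to soluble OVA in Peyer's patch minus those in spleen. *Ighg2b* (-2.72), *Ighg1* (2.67), and *Fcer2a* (1.43) were tested in the same way.

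The largest negative differences among genes averaging at least 1 CPM in Peyer's patch and without overlap there were *Ppp1r36* (-3.22), *Ccdc190* (-2.87), *Cntn2* (-2.68), *Tubb3* (-2.68), and *Dgkg* (-2.35). The largest positive differences were *Ccn1* (5.50), *Pagr1a* (5.20), *Susd4* (3.93), *Vipr2* (3.43), and *Zan* (3.42). Several of these rest on very low spleen levels. *Ccn1*, a matricellular protein, was at 5.65, 6.67, and 6.46 CPM with OVA NPs and 2.38, 1.88, and 1.04 CPM with soluble OVA in Peyer's patch, while all 3 spleen OVA NP libraries were at 0, so its fitted value depends on how 0 is treated and has no fixed size. *Vipr2*, a receptor for vasoactive intestinal peptide, was at 9.29, 7.65, and 7.56 CPM against 2.76, 2.74, and 2.80 CPM in Peyer's patch. *Pagr1a* was not a DEG within Peyer's patch (adjusted p = 0.113), where soluble OVA replicate 1 was at 2.38 CPM and replicates 2 and 3 at 0.196 and 0.459 CPM.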

How the results depend on the processing

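The 4697 DEGs between OVA NPs and soluble OVA were 4730 by DESeq2. Deviations of same-numbered samples from their group means had correlations of -0.454, -0.307, and -0.141. With 3 samples per group these cannot tell whether equal numbers shared a cage or day, and the labels do not say. With the replicate block the count was 3119, with 1364 higher, and soluble OVA against PBS had 1437 lower. Leaving out 1 library at a time gave 3581 to 4503 DEGs, 1304 to 2095 higher. It gave 1211 to 1899 lower genes for soluble OVA against PBS, the lowest without soluble OVA replicate 2 and 1253 without soluble OVA replicate 3, and 835 to 1279 more positive tissue differences, the lowest without spleen OVA NP replicate 2. OVA NPs against PBS had 143 DEGs by DESeq2 (90 higher, 53 lower), 1 (higher) when all 9 Peyer's patch libraries were fitted, and 0 to 8 when leaving out 1 library, all of them higher. With library totals in place of TMM, an alternative chosen after seeing the data, 2300 were higher and 2442 lower.

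Of 108 named DEGs, 0 changed sign under any of these alternatives in which they were tested, and 82 were called in each of those. Genes with few counts, such as *Clgn*, were not tested where every library needed at least 10 counts. With the block 19 lost the call, and the numbers of T cell, monocyte, and MHC class II genes called higher fell to 7, 5, and 5. Signs changed only for genes that were not DEGs. Leaving out 1 library at a time, the log2 fold change ran from -0.363 to 0.029 for *Cxcr4*, from -0.639 to 0.093 for *Epcam*, from -0.084 to 0.196 for *Prdm1*, from -0.105 to 0.064 for *Jchain*, and from -0.510 to 0.322 for *Vil1*. *Vil1* was at 0.039 under the block, and *Jchain* at -0.002 with at least 10 counts in every library. With 3 libraries per group, differences in genes near 3 counts were not detectable at this depth.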

Other observations

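Proteases of mucosal mast cells had their highest levels in the OVA NP libraries of Peyer's patch. *Mcpt1* was at 206, 214, and 147 CPM with OVA NPs, 63.2, 67.8, and 140 CPM with soluble OVA, and 28.9, 18.5, and 36.4 CPM with PBS. *Mcpt2* followed at 108, 113, and 75.3 CPM, 29.9, 35.6, and 72.2 CPM, and 13.5, 11.8, and 17.98 CPM. Neither passed between OVA NPs and soluble OVA (edgeR, adjusted p = 0.0948 and 0.101), and OVA NPs against PBS gave a log2 fold change of 2.78 for *Mcpt2* (adjusted p = 0.0522). Of 8 tested mast cell and basophil genes, 3 were DEGs higher and 1 lower with soluble OVA against PBS (median 1.11). With OVA NPs against PBS 0 were DEGs (median 2.33). *Cpa3*, the mast cell carboxypeptidase, was a DEG between OVA NPs and soluble OVA at 9.98, 8.76, and 9.20 CPM against 3.46, 4.23, and 7.22 CPM (log2 fold change 0.93, adjusted p = 0.0281), a call that was lost when any library other than soluble OVA replicate 3 was left out (adjusted p from 0.0697 to 0.096). *Mcpt1*, *Mcpt2*, and *Cpa3* thus had their OVA NP libraries above both other groups.

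Other B cell lists were mixed. Of 12 B-1 cell genes 7 were higher with OVA NPs and 2 lower, of 12 marginal zone genes 5 were higher and 1 lower, and of 15 genes of mucosal IgA class switching 7 were higher and 2 lower (4 without OVA NP replicate 1). Of 20 B cell receptor signaling genes 2 were higher and 4 lower, beside 13.8% and 16.3% of all genes tested, with a median log2 fold change of 0.01. Without soluble OVA replicate 1 these were 5 and 2, and without soluble OVA replicate 3 the number lower was 2.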
